A study of Saccharomyces cerevisiae with 6 samples.

Results

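Cytosolic ribosomal protein genes of budding yeast (Saccharomyces cerevisiae) were followed on 6 Affymetrix arrays, 3 from cells whose histone H3 carried arginine in place of the lysines at positions 4, 36 and 79, and 3 from cells with wild-type H3. They were taken as the genes whose symbol is RPL or RPS with a number and at most a copy letter, measured by a probe set that lists exactly that gene. With the brightest such probe set per gene, this gave 75 genes, 42 of the large subunit and 33 of the small subunit. On the arrays 5656 genes have a probe set that lists them alone. Both groups grew in selective galactose medium, then spent 6 h in selective glucose medium, with cells collected at optical densities between 0.5 and 0.7. Per the series design, glucose shuts off the wild-type H3 gene in the mutant cultures, so that H3 K4,36,79R remains as the sole H3. The labels give no further genotype. The p-values measure the spread between arrays labelled as replicates, and the titles do not say whether these are separate cultures.

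A ribosome of the cytosol is built from a small subunit, which reads the messenger RNA, and a large subunit, which joins amino acids. In growing yeast the genes for its proteins are among the most strongly transcribed. Many exist as a pair of copies, A and B, that encode the same or nearly the same protein. The factor Rap1 and the pair Fhl1 and Ifh1 drive most of them, and nutrient signalling through TOR and protein kinase A raises or lowers them together. Some ribosomal proteins also bind their own RNA and hold its level down.

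Array signals were scaled to a common 2% trimmed mean of 500. Differences are mutant minus wild type on a log2(signal + 16) scale. A call is a limma p-value under 0.05 after Benjamini-Hochberg adjustment over the 6808 probe sets whose scaled signal averaged 50 or more. On the array as a whole 61 probe sets were called higher and 92 lower. In RNA from whole cultures, fewer cells of a kind and less RNA per cell cannot be told apart. Correlations between arrays on the log2 scale ran from 0.964 to 0.983 within the mutant, from 0.961 to 0.981 between groups and from 0.985 to 0.989 within the wild type. The targeted genes HHT1 and HHT2 share 3 probe sets: 1 had 914, 1060 and 894 in the mutant against 2793, 2964 and 2847 in the wild type (difference -1.57, limma adjusted p = 0.0013), a brighter one had a difference of -0.11 (limma adjusted p = 0.648), and the last lay below the signal filter. These probe sets disagree, and none is known here to cover the replaced bases.

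The RNA levels of ribosomal protein genes differed little between mutant and wild-type H3. None of the 75 genes passed the limma test, against 2.25% of all probe sets, 0.896% called higher and 1.35% called lower. At an unadjusted p under 0.05 there were 3 lower and 2 higher genes, against 19.6% of all probe sets. The smallest adjusted p of a member was 0.0933, for RPL7B. Means were lower in the mutant for 58 genes and higher for 17, which is 77.3% lower, against 47.5% of all probe sets tested. The median difference of the 75 genes was -0.065, against 0.018 over all probe sets tested.

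The intervals were narrow for most of the genes. The median standard error of a member's difference was 0.12, against 0.16 over all probe sets. For 73 of the 75 genes the 95% interval of the difference lay wholly between -1 and 1, so that a 2-fold change in either direction was outside it. The exceptions were RPL7B and RPL37B. For 53 genes the interval lay between -0.5 and 0.5, and 66 genes had a difference of less than 0.25 in size.

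**Figure D1:**
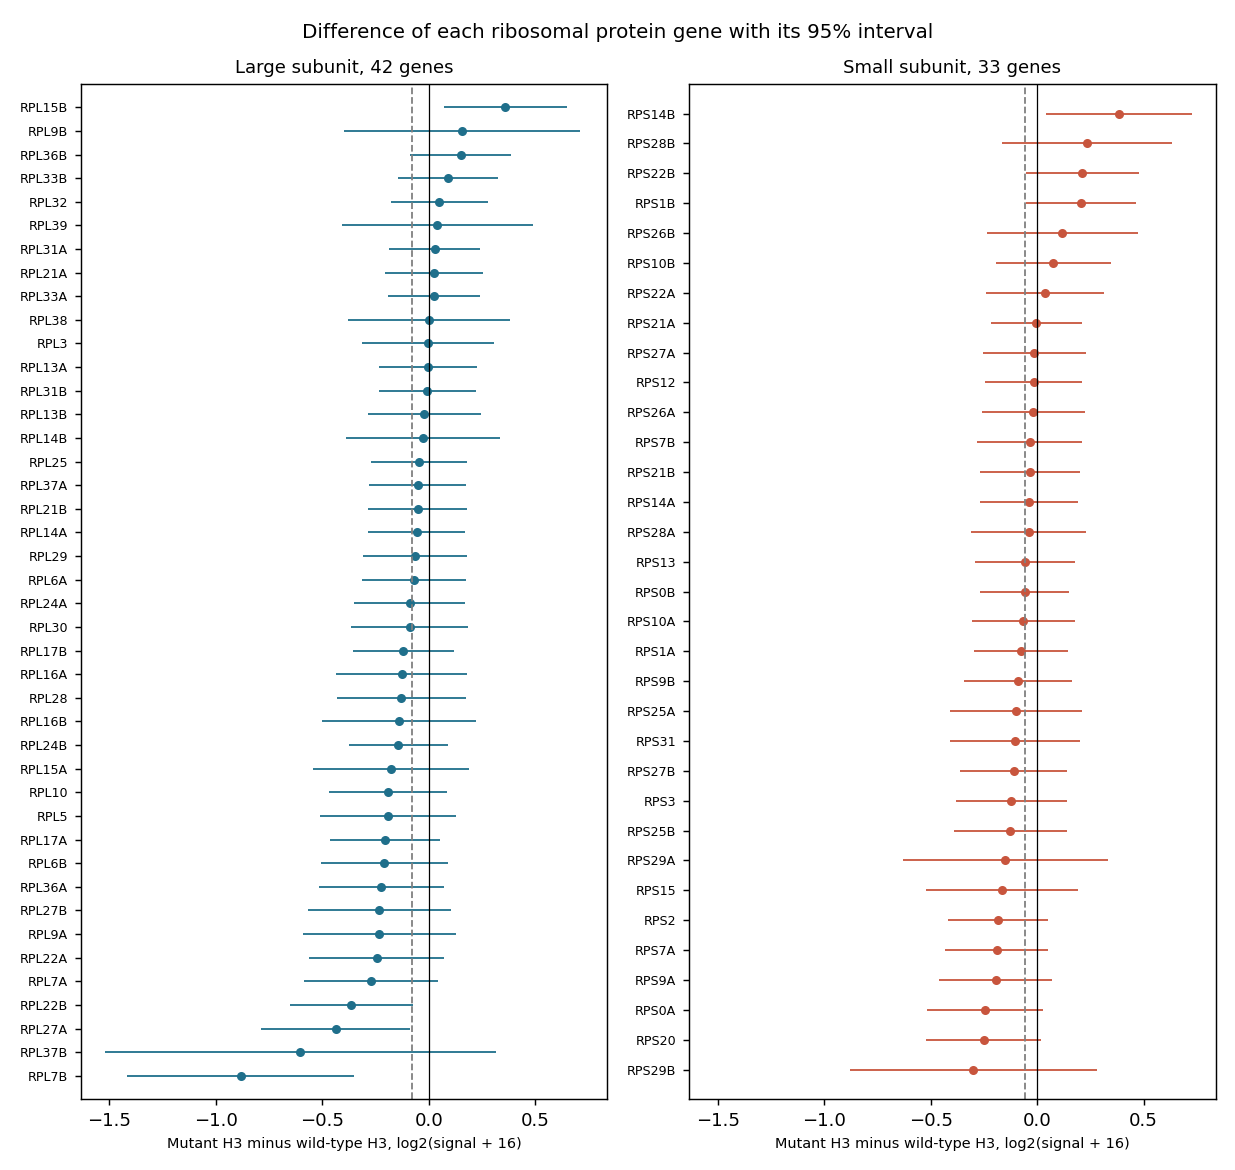
Difference between mutant and wild-type H3 for each of 42 large and 33 small subunit genes (x axis, log2(signal + 16); points are fitted differences, bars 95% intervals from limma, dashed lines the medians of -0.080 and -0.058). Most points lie a little left of 0 with intervals that cross it, and the widest interval is that of RPL37B.

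The groups overlapped when the genes were summarised per array. Each gene was set against its own wild-type mean. The median over the 75 genes was then -0.085, 0.043 and -0.13 on mutant arrays 1 to 3, against 0.036, -0.058 and 0.030 on wild-type arrays 1 to 3. Mutant arrays 1 and 3 were low, mutant array 2 was as high as the wild-type arrays 1 and 3, and wild-type array 2 was lower than mutant array 2. The large subunit genes had medians of -0.089, 0.051 and -0.22 on the mutant arrays, against 0.037, -0.061 and 0.028 on the wild-type arrays. For the small subunit genes they were -0.074, 0.023 and -0.083 on the mutant arrays, against 0.036, -0.058 and 0.036 on the wild-type arrays. Both subunits thus had the same order of mutant arrays, with array 2 highest and array 3 lowest.

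**Figure D2:**
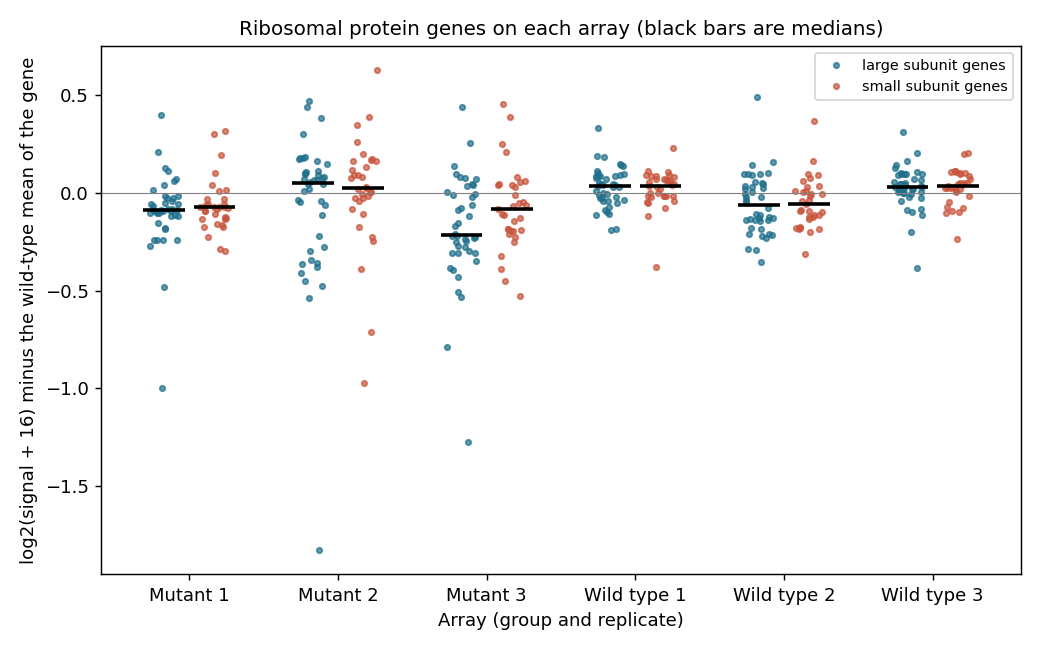
Log2(signal + 16) of each ribosomal protein gene minus its wild-type mean (y axis) on each of the 6 arrays (x axis); points are genes, black bars medians per subunit. Mutant array 2 has medians of 0.051 and 0.023 and also holds the lowest point of the plot, RPL37B.

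The median difference also depended on how the arrays were made equal. With quantile normalization the median of the members was -0.0053 and 40 genes had a lower mean, and with cyclic loess, which removes any difference that follows brightness, it was -7.42e-05 with 38 lower. Both methods are fitted over all probe sets, the bright members among them, so they can also remove a shift shared by bright genes. With equal array medians the median of the members was -0.12. On the deposited scale, where the mutant arrays carry a lower overall level, the median was -0.32, against -0.22 for all probe sets, and 2 genes were called lower. The members are bright, with mean signals from 1141 to 14269 and a median of 6810, against a median of 294 over all probe sets tested, so all lay far above the signal filter. The other 1110 probe sets at least as bright as the dimmest member had a median difference of -0.0033, and 14 of them were called lower and 4 higher. This comparison set was chosen after seeing the data, and it was not otherwise matched to the members in brightness.

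**Figure D3:**
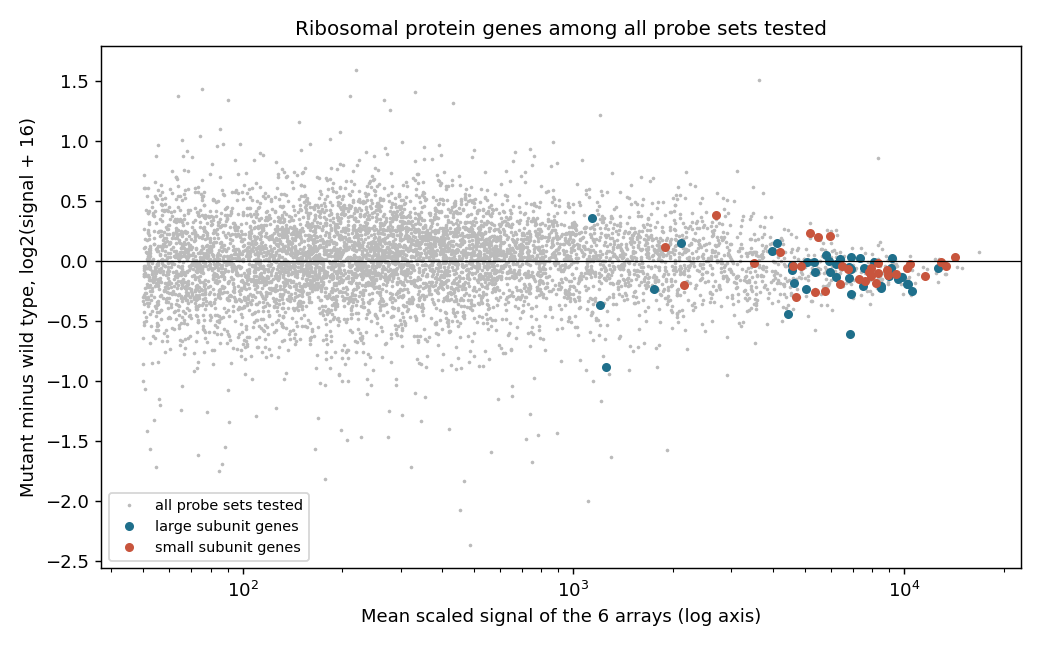
Difference between mutant and wild-type H3 (y axis, log2(signal + 16)) against mean scaled signal (x axis, log) for all 6808 probe sets tested, with large and small subunit genes coloured. The 75 genes lie between mean signals of 1141 and 14269, most of them near 0, and the members farthest from 0 are among the dimmer ones apart from RPL37B.

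The groups were fully separate for few members. The 3 mutant values did not overlap the 3 wild-type values for 8 genes, or 10.7%, against 25.8% of all probe sets tested. Of these 8, RPL7B, RPL22B, RPL27A and RPS20 were lower in the mutant, against 11.5% of all probe sets, and RPL15B, RPL36B, RPS1B and RPS14B were higher, against 14.3%. RPS20 and RPL36B were named after their values were seen. Leaving out either number 2 array moved this count. Without mutant replicate 2, 20 members (26.7%) were lower, against 19.7% of all probe sets, and 4 (5.33%) were higher, against 22.9%. Without wild-type replicate 2, 27 members (36%) were lower, against 18.2% of all probe sets, and 6 (8%) were higher, against 22.1%. The share of lower members was thus above that of all probe sets without either of these arrays and below it with all 6 arrays. Without mutant replicate 1, 9 members (12%) were lower, against 15.6%, and 8 (10.7%) were higher, against 22.5%. Leaving out any other array gave 4 or 5 lower members (5.33% or 6.67%), against 14.3% to 15.8% of all probe sets. It also gave 4 or 5 higher members (5.33% or 6.67%), against 16.6% to 18.2%. On the deposited scale 50 members (66.7%) were lower and none higher, against 33% of all probe sets lower and 3.88% higher. With equal array medians 2 members (2.67%) were higher, against 11.7%.

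Among large subunit genes, 32 had a lower mean in the mutant and 10 a higher one, with a median difference of -0.080. The most negative value was that of RPL7B, a copy of the gene for large subunit protein L7. RPL7B had scaled signals of 787, 1219 and 649 in the mutant, against 1638, 1242 and 1974 in the wild type. All mutant arrays lay below the wild-type arrays, though mutant array 2 nearly reached wild-type array 2. The difference was -0.88 (SE 0.24, 95% interval -1.42 to -0.35, limma adjusted p = 0.0933). Without mutant replicate 2 it was -1.14 and called (limma adjusted p = 0.018), and it was -1.13 on the deposited scale, also called (0.046). The ID of this probe set marks an incomplete set of unique probes. A second RPL7B probe set, whose ID marks probes common to a family, differed by only -0.065. The partner RPL7A had 6771, 6200 and 5760 in the mutant, against 7996, 6147 and 8680 in the wild type, a difference of -0.27 (limma adjusted p = 0.321). The ID of that RPL7A probe set also marks an incomplete set of unique probes, and the other 2 of RPL7A differed by 0.079 and -0.042. The probe sets of this pair therefore disagreed on size, and for RPL7A on sign.

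RPL27A, a copy of the gene for large subunit protein L27, had 4482, 3994 and 2939 in the mutant, against 4699, 5246 and 5319 in the wild type. The groups did not overlap, with mutant array 3 the lowest. The brightest RPL27A probe set has an ID that marks probes common to a family. The difference was -0.44 (SE 0.16, 95% interval -0.79 to -0.087, limma adjusted p = 0.169), and the second RPL27A probe set gave -0.31. Its partner RPL27B, named after its value was seen, differed by -0.23 with overlapping groups.

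RPL22B is a minor copy whose own protein hinders the splicing of its RNA. It had 965, 1051 and 1136 in the mutant, against 1387, 1235 and 1447 in the wild type. Every mutant array lay below every wild-type array, and the spread within each group was small. The difference was -0.36 (SE 0.13, 95% interval -0.65 to -0.076, limma adjusted p = 0.165), and on the deposited scale it was -0.61 and called (0.027). The main copy RPL22A had 10600, 8548 and 9728 in the mutant, against 12884, 9287 and 12245 in the wild type. Mutant array 1 was above wild-type array 2, and the difference was -0.24 (limma adjusted p = 0.372).

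RPL37B, which encodes a small zinc-binding protein of the large subunit, had the second most negative value. It had 7423, 2166 and 8146 in the mutant, against 8223, 6665 and 8426 in the wild type. Mutant array 2 alone was low, and the difference of -0.60 had a standard error of 0.41 (limma adjusted p = 0.453). Without mutant replicate 2 it was 0.0087. RPL37A had 8678, 9003 and 9149 in the mutant, against 9826, 8407 and 9650 in the wild type, and differed by -0.052.

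The largest positive value of the large subunit was that of RPL15B, a copy of the gene for large subunit protein L15. RPL15B had 1152, 1353 and 1353 in the mutant, against 1051, 923 and 1016 in the wild type. The groups did not overlap, and the difference was 0.36 (SE 0.13, 95% interval 0.072 to 0.65, limma adjusted p = 0.168). It was also the dimmest member. Its partner RPL15A had 4792, 3357 and 5013 in the mutant, against 5369, 4311 and 5046 in the wild type, with mutant array 2 the lowest and a difference of -0.18 (limma adjusted p = 0.589), or 0.0040 without that array. RPL9B differed by 0.16 with a wide interval, from -0.40 to 0.71, and it was -0.034 with the third wild-type array left out. The ID of its probe set marks an incomplete set of unique probes, and a probe set that lists both RPL9A and RPL9B gave -0.29.

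Large subunit genes without a second copy had small differences in mean, and those named here were chosen for their roles, some outside the rule for named genes. RPL3, for a protein beside the peptidyl transferase centre, averaged 5068 ± 706 in the mutant and 5072 ± 581 in the wild type (SD, n = 3 each), a difference of -0.0042 (95% interval -0.31 to 0.30). RPL5, whose protein carries 5S ribosomal RNA into the ribosome, differed by -0.19, as did RPL10, whose protein joins late in assembly. RPL25, for a protein at the mouth of the exit tunnel, differed by -0.046. RPL30, whose protein represses the splicing of its own RNA, had 5463, 5693 and 4496 in the mutant, against 5163, 5885 and 5558 in the wild type. Only mutant array 3 stood low, and the difference was -0.090 (limma adjusted p = 0.726), or 0.013 without that array.

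**Figure D4:**
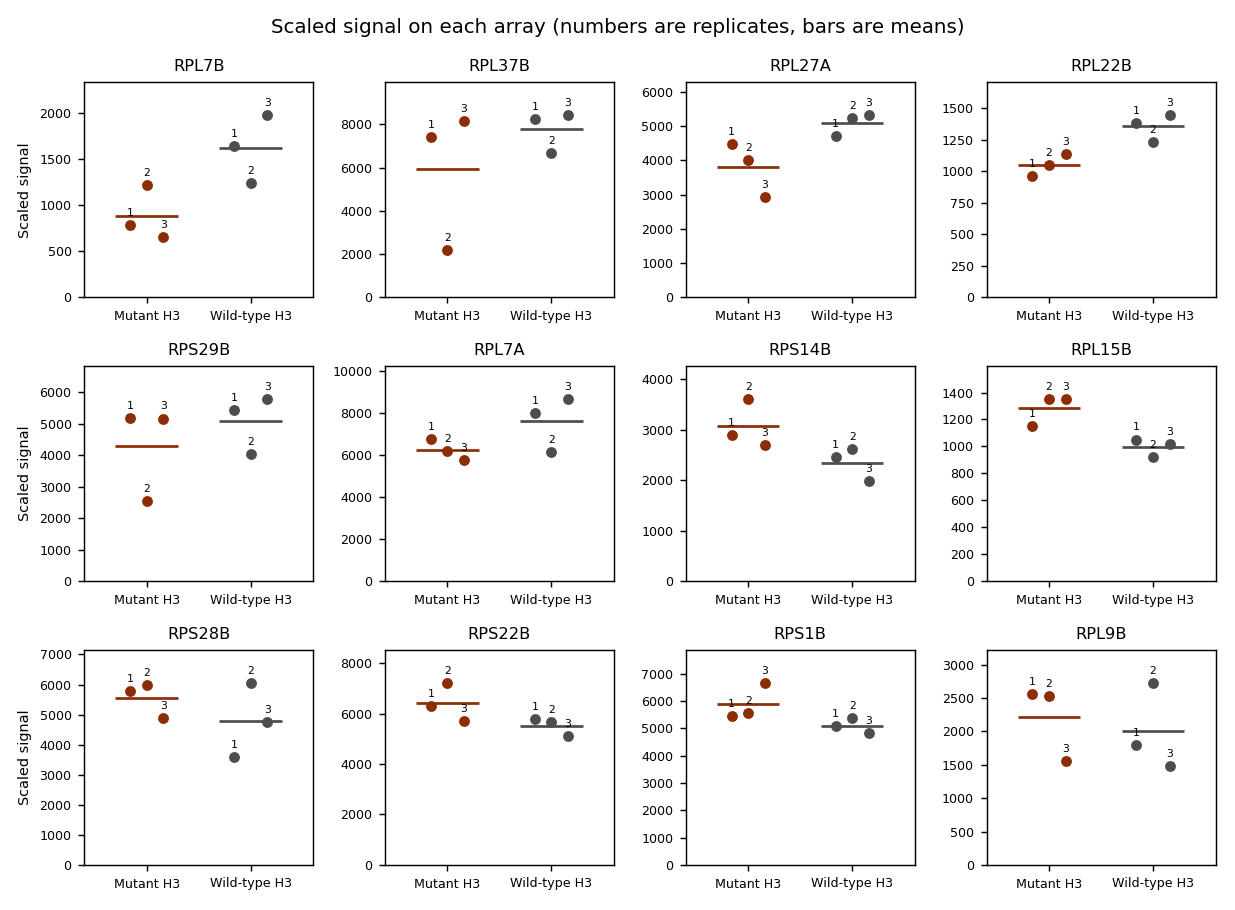
Scaled signal (y axis, linear from 0) on each mutant array (left) and wild-type array (right) for the 6 ribosomal protein genes with the most negative and the 6 with the most positive differences; points are arrays with their replicate numbers, bars group means. RPL7B, RPL27A, RPL22B, RPS14B, RPL15B and RPS1B separate fully, while RPL37B and RPS29B are low on mutant array 2.

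Among small subunit genes, 26 had a lower mean in the mutant and 7 a higher one, with a median difference of -0.058. The largest positive value was that of RPS14B, the copy whose RNA is bound and repressed by its own protein. RPS14B had 2899, 3606 and 2690 in the mutant, against 2446, 2608 and 1976 in the wild type. Every mutant array lay above every wild-type array, by a narrow margin between mutant array 3 and wild-type array 2. The difference was 0.38 (SE 0.15, 95% interval 0.041 to 0.73, limma adjusted p = 0.207). RPS14A, which makes most of that protein, had 4282, 4749 and 4639 in the mutant, against 4627, 4708 and 4684 in the wild type, and differed by -0.038 (95% interval -0.27 to 0.19).

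RPS22B and RPS1B had higher means in the mutant by a similar amount. RPS22B had 6313, 7224 and 5724 in the mutant, against 5770, 5652 and 5130 in the wild type. The groups overlapped only between mutant array 3 and wild-type array 1, and the difference was 0.21 (limma adjusted p = 0.353). Its other 2 probe sets gave 0.26 and 0.18, the same direction. RPS1B had 5460, 5577 and 6672 in the mutant, against 5093, 5371 and 4832 in the wild type, without overlap, and a difference of 0.21 (limma adjusted p = 0.360). On the deposited scale the differences of RPS22B and RPS1B were -0.038 and -0.046. The IDs of the brightest probe sets of RPS22B and RPS1B mark an incomplete set of unique probes. A probe set that lists both RPS1A and RPS1B differed by 0.019, with overlapping groups.

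RPS28B, whose RNA is marked for decay when its protein is in excess, had 5787, 5969 and 4888 in the mutant, against 3599, 6058 and 4744 in the wild type. Wild-type array 1 was low and wild-type array 2 the highest of all, so the groups overlapped. The ID of the brightest RPS28B probe set marks an incomplete set of unique probes. The difference was 0.23 (95% interval -0.16 to 0.63), and the second RPS28B probe set gave 0.068. Without wild-type replicate 1 the difference was 0.044, and without wild-type replicate 2 it was 0.42. RPS29B, for a small protein of the head of the subunit, had 5180, 2557 and 5172 in the mutant, against 5444, 4050 and 5795 in the wild type. Both number 2 arrays were low, and the difference of -0.30 (limma adjusted p = 0.560) became 0.039 without mutant replicate 2. The ID of the RPS29B probe set marks probes common to a family. RPS20, for another protein of the head, had 5539, 4980 and 4252 in the mutant, against 5631, 5867 and 5992 in the wild type, a narrow separation with a difference of -0.25 (limma adjusted p = 0.287).

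The brightest 3 members were small subunit genes with differences near 0. RPS22A averaged 14411 ± 1196 in the mutant and 14126 ± 2107 in the wild type (SD, n = 3 each), a difference of 0.036. RPS21A and RPS21B differed by -0.0035 and -0.034. RPS31, which is made as a fusion with ubiquitin, differed by -0.10 (95% interval -0.41 to 0.20), or by 0.040 without mutant replicate 3. RPS9A and RPS9B, a pair in which the protein acts on the splicing of the A copy, differed by -0.19 and -0.090. For RPS2 and RPS3, single-copy genes for proteins near the decoding centre and the messenger RNA entry and named outside the rule, the differences were -0.18 and -0.12.

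Both copies of 29 pairs had a probe set that lists exactly that gene, which covers 58 members, and the other 17 members have no copy letter. In some pairs a probe set ID marks probes common to a family, and such probes may also take up the other copy. Within each array the log2 signal of copy B minus that of copy A was taken, and its mutant and wild-type means were compared, which asks whether the copies differed unequally. It was higher in the mutant for 16 pairs and lower for 13. The size of the difference was under 0.25 in 21 pairs and had a median of 0.14. The groups did not overlap for 4 pairs, 13.8% of the 29, namely RPL7, RPL15, RPS14 and RPS9. For each of these an exact two-sided permutation test gave p = 0.1, the smallest that 3 against 3 arrays allow. After adjustment over the 29 pairs it was 0.669. In this test a pair without any group difference separates fully with a probability of 0.1. A share of 13.8% is close to that, so the count alone does not show that copies differed unequally.

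For RPL15 the ratio of B to A was -2.04, -1.30 and -1.88 in the mutant, against -2.34, -2.20 and -2.29 in the wild type. It was thus nearly constant in the wild type and higher on each mutant array, most so on array 2, where RPL15A was low. The difference was 0.54, and it was 0.32 without mutant replicate 2. For RPS14 the ratio was -0.56, -0.40 and -0.78 in the mutant, against -0.91, -0.85 and -1.24 in the wild type, a difference of 0.42. With 1 array left out it ran from 0.30 to 0.52. For RPL7 it was -3.08, -2.33 and -3.12 in the mutant, against -2.28, -2.29 and -2.13 in the wild type. Mutant arrays 1 and 3 lay well below the rest and array 2 lay beside the wild type, giving a difference of -0.61, and -0.87 without mutant replicate 2. For RPS9 the separation was narrow, with a difference of 0.10, and both probe set IDs mark probes common to a family. For RPL37 the difference was -0.55, with overlapping groups, and 0.066 without mutant replicate 2. A factor common to an array nearly cancels in these ratios, and on the deposited scale they were 0.54, 0.42, -0.61 and -0.55 for RPL15, RPS14, RPL7 and RPL37.

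**Figure D5:**
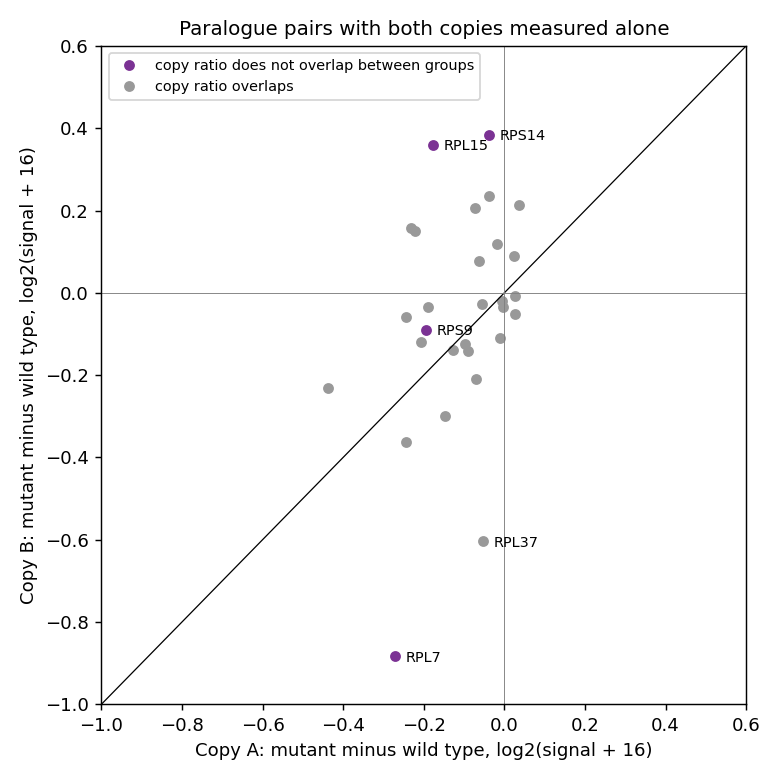
Difference between mutant and wild-type H3 of copy B (y axis) against that of copy A (x axis), both log2(signal + 16), for 29 pairs. Each copy has a probe set that lists exactly that gene, and the line marks equal differences. RPL15 and RPS14 lie above the line and RPL7 and RPL37 below it, and the RPL37 ratio overlaps between groups, with only mutant array 2 low.

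Arrays differed more from each other within the mutant than within the wild type. The median range of a member over the 3 mutant arrays was 0.29 on the log2 scale, against 0.20 over the 3 wild-type arrays, and over all probe sets these were 0.38 and 0.25. A range over 0.5 was seen for 17 members in the mutant and 5 in the wild type. The array farthest from the middle value was mutant array 2 for 40 of the 75 members, and wild-type array 2 for 41 of them. The widest ranges in the mutant were 1.90 for RPL37B, 1.01 for RPS29B and 0.96 for RPS29A, all with array 2 low. The IDs of the RPS29A and RPS29B probe sets mark probes common to a family, so their low values may not be independent.

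No further probe set of these genes was called, against 2.25% of all probe sets. Another 24 probe sets list 1 gene alone, for 20 of the members, with differences from -0.40 to 0.26 and a median of -0.036. Of these, 19 had the sign of the brightest probe set of their gene. A further 59 probe sets list both copies of 37 pairs and cannot be assigned to either. Of these 52 had lower and 7 higher means in the mutant, and the median difference was -0.080. Assembly R64 holds 132 genes of this kind, of which 54 are measured only by these shared probe sets and 3 were not analysed here. The pair with the most negative value was RPS23A and RPS23B, at -0.33 (limma adjusted p = 0.186). Among the members, 45 have a plain probe set, and 16 and 14 have IDs that mark probes common to a family or an incomplete set of unique probes. The median difference was -0.071 for the plain ones and -0.060 for the others.

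The other genes around the ribosome were likewise uncalled on their brightest probe sets, against 2.25% of all probe sets. At that share, lists of this size hold few calls or none. In the list of stalk proteins and ASC1, a scaffold on the small subunit, 0 of 6 genes were called, 4 had lower means and the median difference was -0.090. Of 14 tested regulators of ribosomal protein genes none was called, with 4 higher means, 10 lower means and a median of -0.16. IFH1, the coactivator whose binding follows nutrient signals, had 377, 315 and 440 in the mutant, against 287, 314 and 263 in the wild type. The groups were just separate, with mutant array 2 next to wild-type array 2, and the difference was 0.36 (95% interval 0.014 to 0.71, limma adjusted p = 0.237). FHL1, which anchors IFH1 at promoters, was dim and differed by 0.14, RAP1 by -0.16, the nutrient-responsive activator SFP1 by -0.27 and the promoter-binding protein HMO1 by -0.14, with limma adjusted p from 0.449 to 0.722. Without mutant replicate 3 the difference was -0.087 for SFP1 and 0.038 for HMO1, and without mutant replicate 2 that of FHL1 was 0.062. Other regulators also had separate groups, with ESA1 (0.50) higher in the mutant and RAP1, RPD3 (-0.22) and RRP7 (-0.19) lower. Of all probe sets tested, 25.8% had groups without overlap. ESA1, RPD3 and RRP7 were named after their values were seen. For UTP22, which links ribosome assembly to IFH1, the brightest probe set differed by -0.23 (limma adjusted p = 0.631). Its dimmer probe sets were named after their values were seen. Those tested and not called differed by -0.34, -0.42 and -0.21. Another 1, with a mean signal of 78 against the filter of 50, was called lower (-1.25, limma adjusted p = 0.027). It was the only called one among 19 further probe sets of the genes in these lists. Some of these, mostly of TOR1, lay below the signal filter and were not tested.

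Of 13 tested chaperones of ribosomal proteins and of nascent chains none was called, and their median was -0.046. None of 19 tested translation factors was called, with 6 higher means, 13 lower means and a median of -0.090. In nutrient signalling, which holds genes around TOR and protein kinase A, 9 of 10 tested genes had a higher mean in the mutant. The other 1 had a lower mean, against 47.5% of all probe sets, with a median of 0.17 and no call. The list was not sorted by whether a gene raises or lowers signalling, so the count gives no direction of signalling. At an unadjusted p under 0.05 these 5 lists held 0, 2, 1, 2 and 2 genes in the order given, against 19.6% of all probe sets.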

How the data were processed

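Total RNA of each sample, about 20 ug, was made into biotin-labelled cRNA per the labels' protocols. The authors deposited linear intensities per probe set, computed by MAS5 (per the submitters' processing notes), of a version not given in the sources. Of 9335 probe sets, 60 controls were left out. Arrays were scaled to a 2% trimmed mean of 500, since the deposited trimmed means were 110.0, 107.5 and 95.0 in the mutant and 123.8 to 123.9 in the wild type. Differences, mutant minus wild type, were tested with limma 3.58.1 (R 4.3.3, lmFit and eBayes with an intensity trend) on log2(signal + 16). The procedure was also run on simulated data, with independent noise of the wild-type spread on all arrays. The wider spread within the mutant was not simulated, so that run cannot show how the procedure handles it. Adding 16 understates the change of dim probe sets. The number of arrays and the spread between them limit the precision. No detection calls were used.

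Sample titles gave the groups and replicate numbers. Gene names came from the platform annotation, and all 75 members matched assembly R64. Members, lists, tests and named genes were chosen with earlier results of these data known, so no p-value is given for a list. Named were the 6 largest differences in each direction, both copies of the 4 pairs that differed most, the brightest 3, members known for regulating their own RNA or for ubiquitin fusion, the member nearest the filter, and 5 regulators. Alternatives were other scalings, offsets, filters, variance model, probe set choice, a replicate block and leaving out each sample. Planned comparisons of promoter motifs and of protein identity between copies were not run, and no sequences were used here.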

Additional observations from a re-analysis of the deposited data

How the results depend on the processing

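No ribosomal protein gene was called under 17 of the 19 settings tried. The exceptions were the intensities as deposited, with 2 called lower (RPL7B and RPL22B), and the fit without mutant replicate 2, with 1 called lower (RPL7B). Leaving out each sample in turn thus gave 0 to 1 genes called lower and 0 called higher. On the deposited scale the median difference of the members was -0.32, of large subunit genes -0.33 and of small subunit genes -0.31. The small subunit median was 0.0061 with quantile normalization and 0.0062 with cyclic loess. With 1 sample left out the members' median ran from -0.11 to -0.038, and with the mean of all probe sets of a gene it was -0.073. For 28 named genes, 447 differences were recomputed: 414 kept their sign and side of the threshold, 30 turned sign without a call, and 3 became called.

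The sample titles do not say whether the same replicate numbers pair the samples. Deviations of same-numbered arrays correlated by 0.13, 0.16 and 0.042. Those of differently numbered arrays were not compared, so these values cannot decide it. With the replicate block the array-wide calls became 108 higher and 147 lower, against 61 and 92, no member was called, the smallest adjusted p of a member was 0.061, and the members' median stayed at -0.065. Array-wide calls were 31 higher and 370 lower on the deposited scale, 33 and 54 with no filter, and 57 lower with a filter at 200. They ran from 13 to 124 higher and from 23 to 140 lower with 1 sample left out.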
